A study of Mus musculus with 71 samples.

Results

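Perineuronal nets are lattices of extracellular matrix that wrap the soma and proximal dendrites of certain neurons, above all fast-spiking interneurons that make parvalbumin. Their backbone is hyaluronan, onto which the lecticans (the chondroitin sulfate proteoglycans aggrecan, brevican, neurocan and versican) are fastened by link proteins, and tenascins cross-link the lecticans at their other end. Nets form late in postnatal life, restrain synaptic plasticity and have been studied as a substrate of lasting drug memories. Here, 8 genes that encode net components were followed: the lecticans Acan, Bcan, Ncan and Vcan, the link proteins Hapln1 and Hapln4, and the tenascins Tnr and Tnc. They were taken by gene symbol, with no threshold on their values, from 37681 genes listed in the tables, and all 8 were found.

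The study profiled RNA from micro-punches of the nucleus accumbens (NAc), the ventral tegmental area (VTA) and the prefrontal cortex (PFC). The mice were wild-type C57BL/6J of both sexes, listed as 8 weeks old in every group, with no age given for tissue collection. Mice had self-administered cocaine at 0.7 mg/kg per infusion, or saline, in 21 daily sessions, and tissue was taken after 1 or 28 days of abstinence. Each of the 12 combinations of region, day and treatment held 6 libraries, except the VTA day 28 saline group with 5, which gives 71 libraries. All animals of both treatments therefore had the same sessions and differed in what was infused, and the sex of the mouse behind a library was not used here. The labels do not say whether each library came from its own mouse, so p-values measure the spread between libraries. The paper took NAc, VTA and PFC from removed brains, so libraries of different regions may share a mouse. The day 28 region fits treated them as independent.

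Depth ranged from 20971967 to 49700932 reads assigned to genes per library. Region markers fitted the labels: the summed level of 6 striatal markers was 761 RPKM or more in every NAc library (RPKM, read counts scaled by transcript length and by the reads assigned to genes in the library), that of 6 dopamine neuron markers 418 RPKM or more in every VTA library, and that of 6 cortical excitatory markers 468 RPKM or more in every PFC library. A pair of saline libraries of day 28 stood apart. PFC library 4 held striatal markers at 735 RPKM against 62.9 to 78.2 RPKM in the other 5 of its group. VTA library 1 had the lowest median correlation with its own group of all 71 libraries (0.935), and held Tnr at 4.19 RPKM against 13.9 to 14.5 RPKM in the other 4. Cortical markers also varied widely inside the NAc groups (3.11 to 285 RPKM) and fibroblast markers inside the VTA groups (10.6 to 175 RPKM). In punches, fewer cells of a type and less RNA per cell cannot be told apart.

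The members were spread over a wide range of abundance. Bcan, which encodes brevican, a brain lectican made largely by glia, was the most abundant in the day 28 saline libraries of all 3 regions, with means of 86.2 ± 6.35 RPKM in the NAc (SD, n = 6), 107 ± 18.6 RPKM in the VTA (n = 5) and 65.5 ± 7.35 RPKM in the PFC (n = 6). Acan, which encodes aggrecan, the lectican most closely tied to nets around parvalbumin neurons, and Tnc, which encodes tenascin-C, were the least abundant, at means of 0.311 to 0.927 RPKM. In the NAc the order was Bcan, Ncan (36.6 RPKM), Tnr (13.4 RPKM), Hapln4 (9.40 RPKM), Hapln1 (2.53 RPKM), Vcan (2.43 RPKM), Acan (0.393 RPKM) and Tnc (0.311 RPKM). In that order the libraries of Tnr and Hapln4, of Hapln1 and Vcan, and of Acan and Tnc overlapped, and the other neighbours did not. In the VTA, Hapln4 (36.2 RPKM) moved up to the second place, ahead of Ncan (14.5 RPKM) and Tnr (12.1 RPKM), which overlapped each other. In the PFC, Ncan (39.0 RPKM) and Hapln4 (33.8 RPKM) overlapped behind Bcan.

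**Figure D1:**
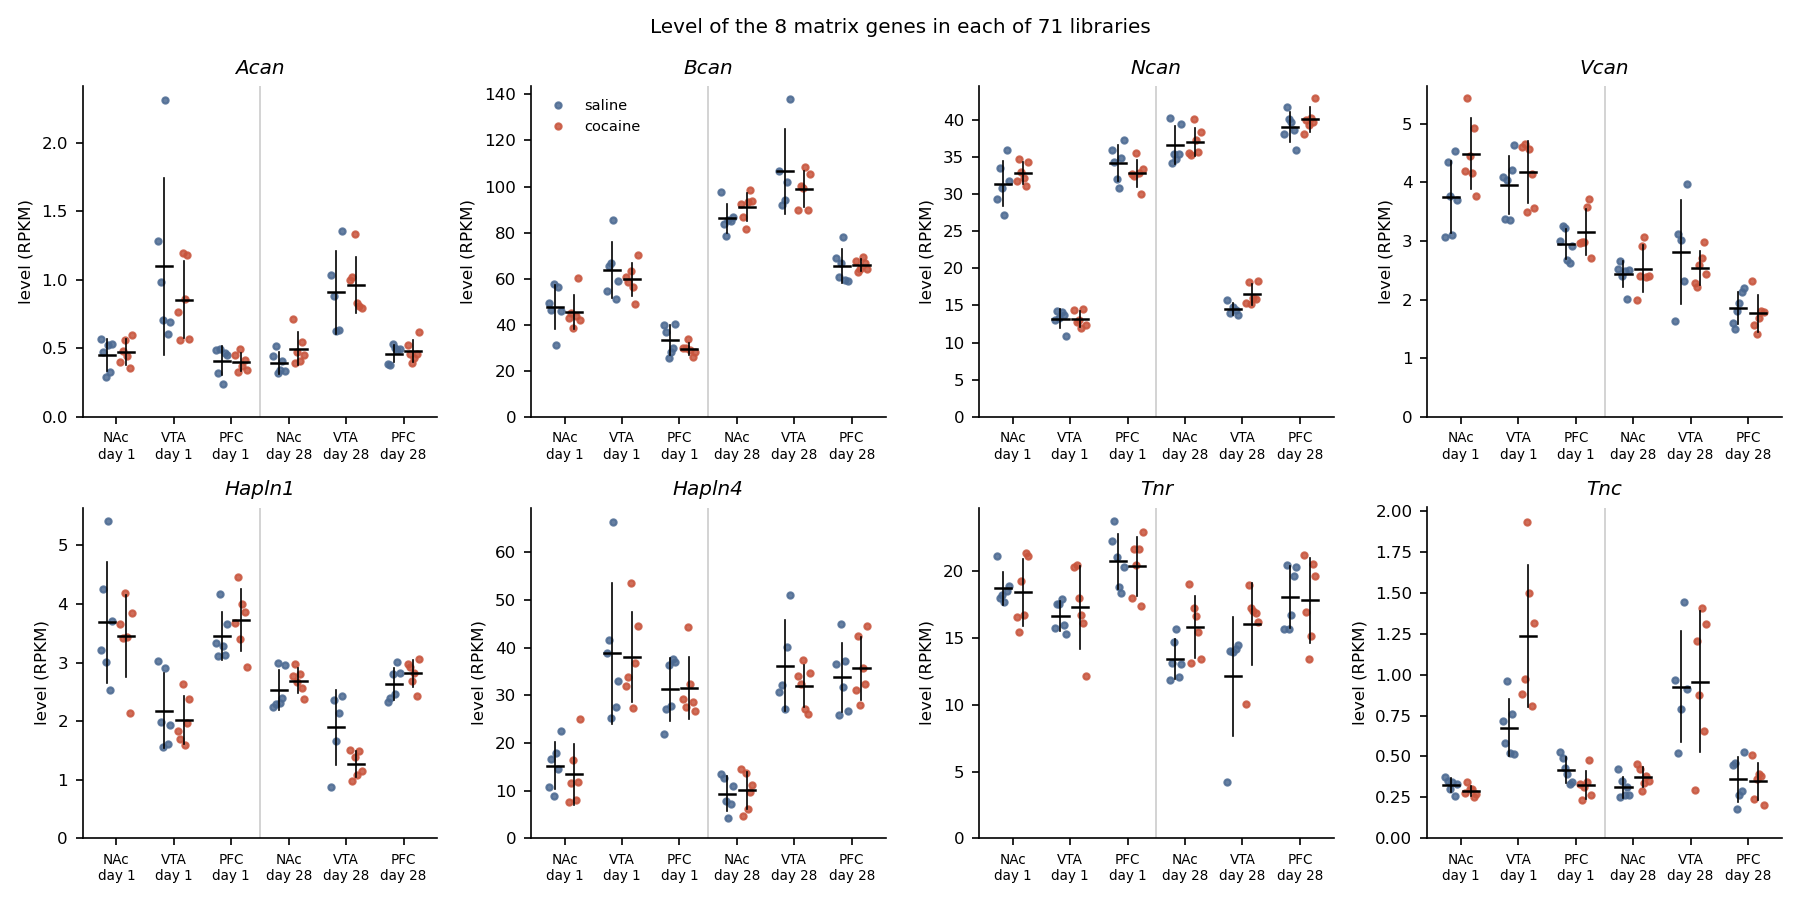
Level in RPKM (vertical axes, from 0) of each gene in every library, by region and day (horizontal axis); blue points are saline and red points cocaine libraries, black bars the group mean and SD. Ncan sits at 10.8 to 18.3 RPKM in all VTA libraries and at 27.2 RPKM or more in all others, and the saline and cocaine points of a group overlap for every gene.

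The first question was how the nets' transcripts differed between regions without cocaine. In the day 28 saline libraries, a fit across 17181 genes (edgeR quasi-likelihood test, Benjamini-Hochberg adjusted p under 0.05) called 5 of the 8 members between VTA and NAc, where it called 62.5% of all genes, 2 members between PFC and NAc (40.7% of all genes), and 7 between VTA and PFC (57.8%). With at least a 2-fold difference asked as well, the counts were 4 members (22.7% of all genes), 1 member (10.7%) and 2 members (20.3%). The members did not move as a block: 3 were higher and 2 lower in the VTA than in the NAc, with a median log2 difference of 0.16 over the 8 members against 0.03 over all genes. Between PFC and NAc the medians were 0.20 and -0.02, and between VTA and PFC 0.21 and 0.02.

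Ncan set the VTA apart. It encodes neurocan, a brain lectican that is made abundantly during development and persists in adult nets. In the day 28 saline libraries it lay between 34.2 and 40.3 RPKM in the NAc (median 35.4) and between 35.9 and 41.8 RPKM in the PFC (median 39.1). The 5 VTA libraries held 13.7, 14.02, 14.4, 14.8 and 15.7 RPKM. The VTA range did not meet either of the others, while NAc and PFC overlapped. Ncan was 2.71-fold lower in the VTA than in the NAc (log2 difference -1.44, SE 0.060, edgeR adjusted p = 2.25e-12) and 2.98-fold lower than in the PFC (-1.57, SE 0.061, edgeR adjusted p = 6.50e-13). The PFC and NAc difference did not pass the test (0.13, SE 0.055, edgeR adjusted p = 0.064). In the other library sets the VTA and NAc difference was -1.32 (day 1 saline) and -1.24 (day 28 cocaine).

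Hapln4 set the NAc apart. It encodes a brain link protein, also called Bral2, found at nets and around synapses of fast-firing neurons. Its day 28 saline level was 4.19 to 13.5 RPKM in the NAc (median 9.44) and 25.8 to 44.9 RPKM in the PFC (median 34.1). The VTA libraries held 27.2, 30.6, 32.3, 40.1 and 51.0 RPKM. All NAc libraries were below all libraries of the other two regions. The VTA stood 3.61-fold above the NAc (log2 difference 1.85, SE 0.24, edgeR adjusted p = 2.80e-06) and the PFC 3.72-fold above it (1.90, SE 0.23, edgeR adjusted p = 4.94e-06). Between VTA and PFC the difference was -0.05 with a 95% interval of -0.54 to 0.45, and it did not pass the test. In the day 1 saline libraries the rises over the NAc were smaller, at 1.27 for the VTA and 1.07 for the PFC. Hapln4 also varied widely inside the NAc: its highest library of day 1 (24.97 RPKM) was the one with the most cortical marker RNA (285 RPKM), and its lowest of day 28 (4.19 RPKM) held 20.6 RPKM of it, but a day 28 library with Hapln4 at 14.6 RPKM held only 14.5 RPKM of cortical markers. The part of cortical tissue in the NAc level of Hapln4 was not tested.

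Acan and Tnc were both highest in the VTA. Acan lay at 0.319 to 0.520 RPKM in the NAc (median 0.372) and 0.377 to 0.528 RPKM in the PFC (median 0.491) of day 28 saline mice. The VTA libraries held 0.629, 0.634, 0.880, 1.04 and 1.36 RPKM, all above the other regions. The VTA was 2.15-fold above the NAc (log2 difference 1.10, SE 0.19, edgeR adjusted p = 7.88e-05) and 1.78-fold above the PFC (0.83, SE 0.19, edgeR adjusted p = 0.0012). NAc and PFC overlapped (0.27, SE 0.19, edgeR adjusted p = 0.26). These are low levels, resting on 74 to 364 reads per library.

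Tnc, a tenascin best known from development, injury and astrocytes, lay at 0.254 to 0.424 RPKM in the NAc (median 0.288) and 0.176 to 0.530 RPKM in the PFC (median 0.370). The VTA libraries held 0.519, 0.790, 0.911, 0.969 and 1.45 RPKM. The lowest VTA library fell just inside the PFC range. Tnc was 2.76-fold higher in the VTA than in the NAc (log2 difference 1.47, SE 0.26, edgeR adjusted p = 9.36e-05) and 2.30-fold higher than in the PFC (1.20, SE 0.26, edgeR adjusted p = 0.00064). In the day 1 saline libraries the same differences were 0.96 and 0.58. Fibroblast markers (5 of 5) were also called higher in the VTA than in the NAc and the PFC at day 28. Of the astrocyte markers, 4 of 6 were higher and 2 lower in both comparisons. Of all genes, 32.6% and 29.8% were higher. The part of these cells in the Tnc differences was not tested.

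Hapln1, the gene of the cartilage-type link protein, whose loss thins nets, ran the other way. It lay at 2.24 to 2.98 RPKM in the NAc (median 2.36) and 2.34 to 3.00 RPKM in the PFC (median 2.63). The VTA libraries held 0.880, 1.66, 2.14, 2.36 and 2.43 RPKM, which reached into both other ranges. It was 1.44-fold lower in the VTA than in the NAc (log2 difference -0.53, SE 0.19, edgeR adjusted p = 0.026) and 1.54-fold lower than in the PFC (-0.62, SE 0.19, edgeR adjusted p = 0.011). Without VTA library 1, the lowest, the differences were -0.34 and -0.44. In the day 28 cocaine libraries they were larger, at -1.16 and -1.28. Whether the regional difference itself changed with cocaine was not tested.

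The remaining members differed by less than 2-fold. Bcan was 1.28-fold lower in the PFC than in the NAc (log2 difference -0.36, SE 0.094, edgeR adjusted p = 0.0056) and 1.47-fold higher in the VTA than in the PFC (0.56, SE 0.099, edgeR adjusted p = 1.04e-04). Vcan, the gene of versican, a lectican of white matter and precursor cells, was 1.37-fold higher in the VTA than in the PFC (0.45, SE 0.17, edgeR adjusted p = 0.028). That call held in 12 of the 17 fits that left out 1 library and was lost without PFC library 1 or 2 or VTA library 2, 3 or 5 (log2 differences of 0.30 to 0.44, edgeR adjusted p up to 0.11). Markers of oligodendrocytes and their precursors were also higher in the VTA, at 3656 to 7092 RPKM against 925 to 2192 RPKM in the PFC and at 131 to 194 RPKM against 54.5 to 80.9 RPKM, and their part in the Bcan and Vcan differences was not tested. Tnr, the gene of tenascin-R, the tenascin that cross-links lecticans in adult nets, was 1.65-fold lower in the VTA than in the PFC (-0.72, SE 0.22, edgeR adjusted p = 0.010). In the day 1 saline libraries that difference was -0.43, and in the day 28 cocaine libraries, where the Tnr ranges of all regions overlapped, it was -0.28 and not called (edgeR adjusted p = 0.072).

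Some of these calls and values rested on the libraries that stood apart. Without VTA library 1 alone, Ncan, Tnr and Vcan were newly called between PFC and NAc (edgeR adjusted p = 0.040, 4.25e-04 and 0.027). That library belongs to neither region, and the fitted differences stayed at 0.13, 0.47 and -0.34. The fit takes the spread of a gene over all regions together, and the SE of Tnr went from 0.21 to 0.090. The Vcan difference between VTA and PFC was then 0.60. With PFC library 4 and VTA library 1 both left out, a choice made after seeing the data, Tnr was again called between PFC and NAc (0.49, edgeR adjusted p = 4.76e-04 against 0.088 with all libraries). So was Vcan (-0.36, edgeR adjusted p = 0.032 against 0.10), so that 4 of the 8 members were called there, beside 8188 of 17308 genes. The Tnr difference between VTA and PFC was then -0.52. The counts of members called in the other 2 region pairs were then 5 and 7, beside 11520 and 10587 of 17308 genes. With 1 library left out at a time they were 5 (VTA and NAc) and 6 to 7 (VTA and PFC), where all libraries together called 62.5% and 57.8% of all genes. Without VTA library 3 Hapln1 was no longer called between VTA and NAc (-0.46, edgeR adjusted p = 0.069) while Bcan was (0.26, edgeR adjusted p = 0.042). In the day 28 cocaine libraries the counts were 5 and 6 of the 8 members, beside 11605 and 10999 of 16948 genes. In the day 1 saline libraries they were 7 and 7, beside 10840 and 10611 of 16430 genes. With library totals alone as the scale, the median gene moved by 0.108 between VTA and NAc and by 0.148 between VTA and PFC, where the share of called genes that were higher in the VTA went from 51.5% to 66.0%. Hapln4 between VTA and PFC then changed sign (0.10, not called), Bcan was called between VTA and NAc (0.31) and Hapln1 was not (-0.42).

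**Figure D2:**
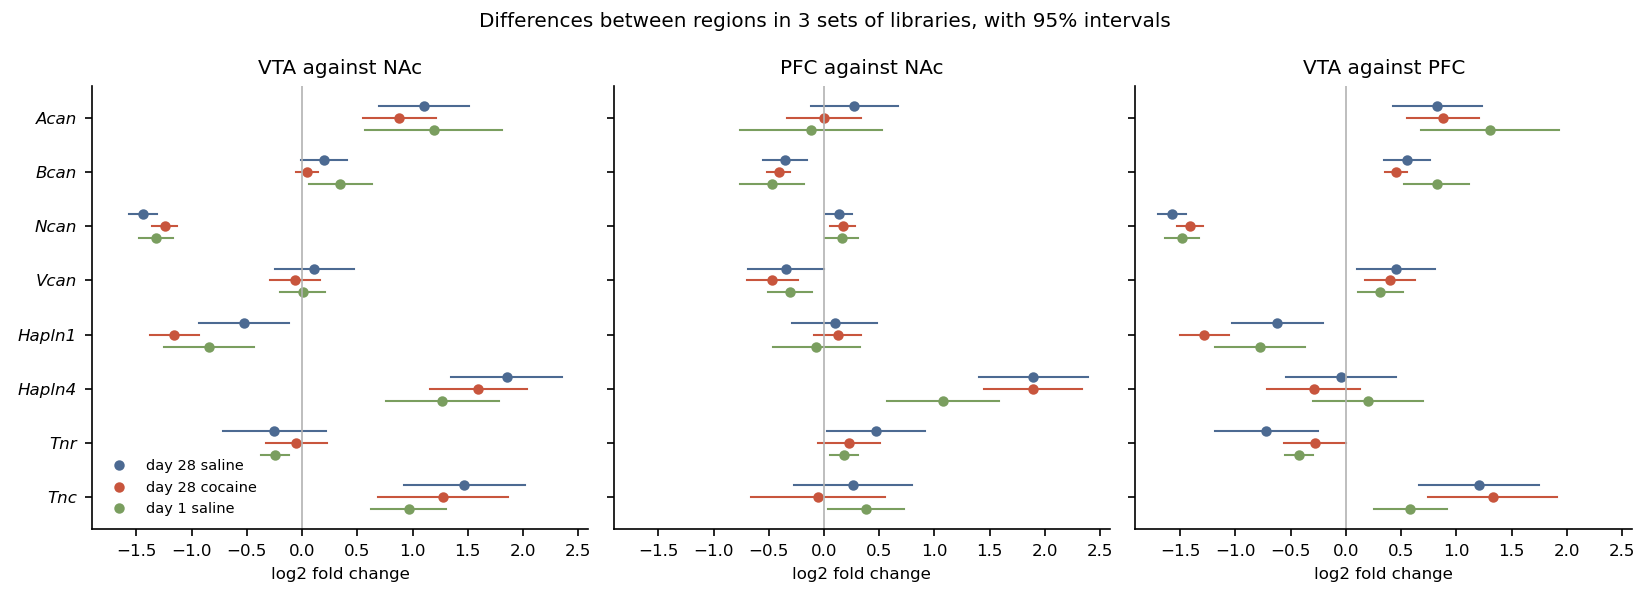
Fitted log2 difference (horizontal axes) with its 95% interval for each gene and pair of regions, in the day 28 saline (blue), day 28 cocaine (red) and day 1 saline (green) libraries. Ncan lies at -1.24 to -1.57 in both comparisons of the VTA in all 3 sets, and Hapln4 lies above 0 in both comparisons with the NAc; the day 1 set also comes from other tables.

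The start regions of the members were set beside their direction between VTA and PFC. RefSeq start windows (GRCm38.p6, 250 bases before to 50 after the start) were matched for 7 of the 8 members. The windows of the members called higher in the VTA than in the PFC held 31 CG dinucleotides (Acan), 24 (Bcan), 12 (Vcan) and 10 or 16 (the pair of Tnc starts). Those of the members called lower held 9 (Ncan), 3 (Hapln1) and 3 (Tnr). Of 32851 mouse windows, 10.6% held at least as many CG as Acan, 45.8% as many as Ncan and 76.7% as many as Hapln1 and Tnr. With 7 genes this is a description of letters, not of regulation. The 150 bases before the start, on the gene's strand, are shown for the most CG-rich of these windows (Acan, chr7:79053076-79053225, plus strand), for the gene with the steepest fall in the VTA (Ncan, chr8:70120845-70120994, minus strand) and for a CG-poor one (Hapln1, chr13:89540486-89540635, plus strand), with CG in capitals.
Acan: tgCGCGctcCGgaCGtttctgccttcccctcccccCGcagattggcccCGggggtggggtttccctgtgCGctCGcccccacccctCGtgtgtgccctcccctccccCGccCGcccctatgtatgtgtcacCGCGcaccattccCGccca
Ncan: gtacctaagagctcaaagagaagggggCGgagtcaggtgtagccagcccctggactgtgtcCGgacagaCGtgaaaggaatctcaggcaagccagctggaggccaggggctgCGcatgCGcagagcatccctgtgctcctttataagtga
Hapln1: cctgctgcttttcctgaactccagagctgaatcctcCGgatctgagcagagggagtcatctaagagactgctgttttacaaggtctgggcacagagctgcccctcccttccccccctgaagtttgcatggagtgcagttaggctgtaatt
The Acan stretch holds 14 CG, the Ncan stretch 5 and the Hapln1 stretch 1.

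The members also lie beside one another in the genome. In the mm9 build used by the authors, with GENCODE gene models of that build, Hapln1 (chr13:89680241-89751437, plus strand) and Vcan (chr13:89794915-89882117, minus strand) are 43477 bases apart and converge, and Hapln4 (chr8:72607428-72614761, plus strand) and Ncan (chr8:72616984-72644772, minus strand) converge over a gap of 2222 bases. Neither pair shared a regional profile. Hapln4 was higher and Ncan lower in the VTA than in the NAc, and Hapln1 was lower and Vcan higher in the VTA than in the PFC.

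The second question was whether cocaine changed the members. Over the 6 comparisons of cocaine with saline, 46 tests of members were made, since Acan and Tnc fell under the minimum of 0.5 RPKM in the PFC at day 1. None passed an adjusted p under 0.05. At the same threshold few other genes did: 0.0126% of those tested in the NAc, 0.186% in the VTA and 0.00693% in the PFC at day 1, and 0% in each region at day 28 by edgeR, where 1102, 1942 and 925 genes had an unadjusted p under 0.05 in the NAc, VTA and PFC and DESeq2 called 14 genes in the NAc, 74 in the VTA and 2 in the PFC, none of them members. At an unadjusted p under 0.05, 5 of the 46 tests passed. These were 1 member of 8 in the NAc at day 1 (4.01% of all genes passed), 1 of 8 in the VTA at day 1 (15.4%), none of 6 in the PFC at day 1 (4.15%), 1 of 8 in the NAc at day 28 (6.76%), 2 of 8 in the VTA at day 28 (11.5%) and none in the PFC at day 28 (5.66%). The fitted change was under 0.2 on the log2 scale in 38 of the 46 tests, and the 95% interval stayed inside a 2-fold change either way in 44. The exact permutation test of each member in each table (two-sided, 48 tests) gave a smallest p of 0.0087 and a smallest Benjamini-Hochberg adjusted p of 0.26.

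**Figure D3:**
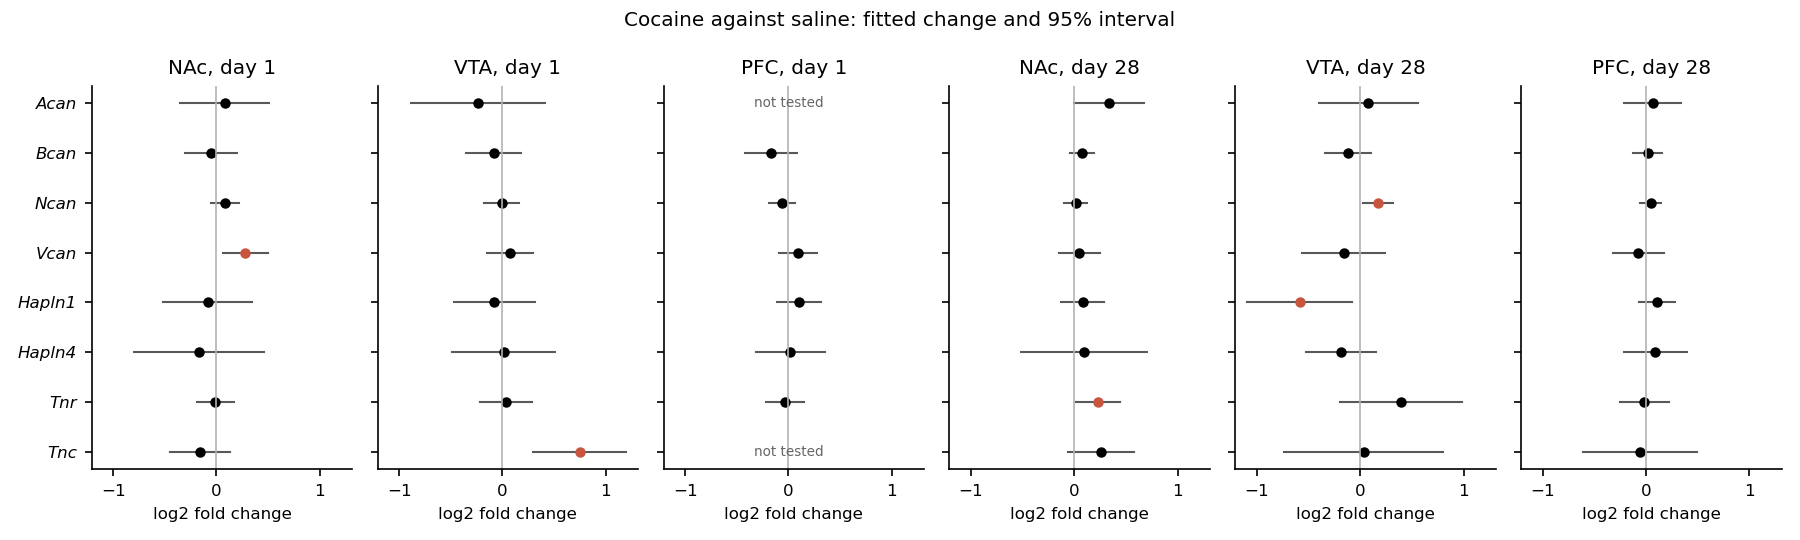
Fitted log2 fold change of cocaine against saline (horizontal axes) with its 95% interval for each gene in each region and day; red points mark an unadjusted p under 0.05. The widest departures from 0 are Tnc in the VTA at day 1 (0.75) and Hapln1 in the VTA at day 28 (-0.59), and no point passed the adjusted threshold.

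Tnc in the VTA at day 1 had the largest fitted change of the 46. It lay between 0.514 and 0.961 RPKM in the saline libraries (median 0.648) and between 0.806 and 1.93 RPKM in the cocaine libraries (median 1.15). All 6 cocaine libraries were above the saline mean and 4 were above every saline library. The fitted change on the log2(RPKM + 0.1) scale was 0.75 (SE 0.21, limma unadjusted p = 0.0034, adjusted p = 0.14; exact permutation p = 0.0087, adjusted over the 48 tests 0.26). At the looser adjusted threshold of 0.25 it was the 1 member called, among 8.44% of all genes. Marker levels of other cells also differed between these groups. The summed level of 5 fibroblast markers ran from 11.9 to 61.4 RPKM in the saline libraries and from 33.9 to 166 RPKM in the cocaine libraries, and that of the dopamine neuron markers from 656 to 1674 RPKM and from 418 to 1019 RPKM. Cortical markers ran from 2.00 to 31.5 RPKM and from 6.46 to 77.4 RPKM. The microglia sum ran from 131 to 209 RPKM and from 86.0 to 155 RPKM. At a limma unadjusted p under 0.05, 5 of 6 microglia, 3 of 5 dopamine neuron and 2 of 4 oligodendrocyte precursor markers were lower (4.29% of all genes). So were 1 of 6 astrocyte and 1 of 6 striatal markers. Higher were 3 of 3 cortical, 4 of 5 fibroblast, 2 of 6 striatal, 1 of 4 endothelial and 1 of 2 choroid plexus markers (11.1% of all genes). With the fibroblast markers as a covariate, chosen after seeing the data, the change of Tnc was 0.39 (limma unadjusted p = 0.095), and with the cortical markers 0.52 (unadjusted p = 0.068). At day 28 Tnc in the VTA ranged from 0.296 to 1.41 RPKM with cocaine and from 0.519 to 1.45 RPKM with saline, a log2 difference of 0.03 with an interval of -0.73 to 0.80.

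**Figure D4:**
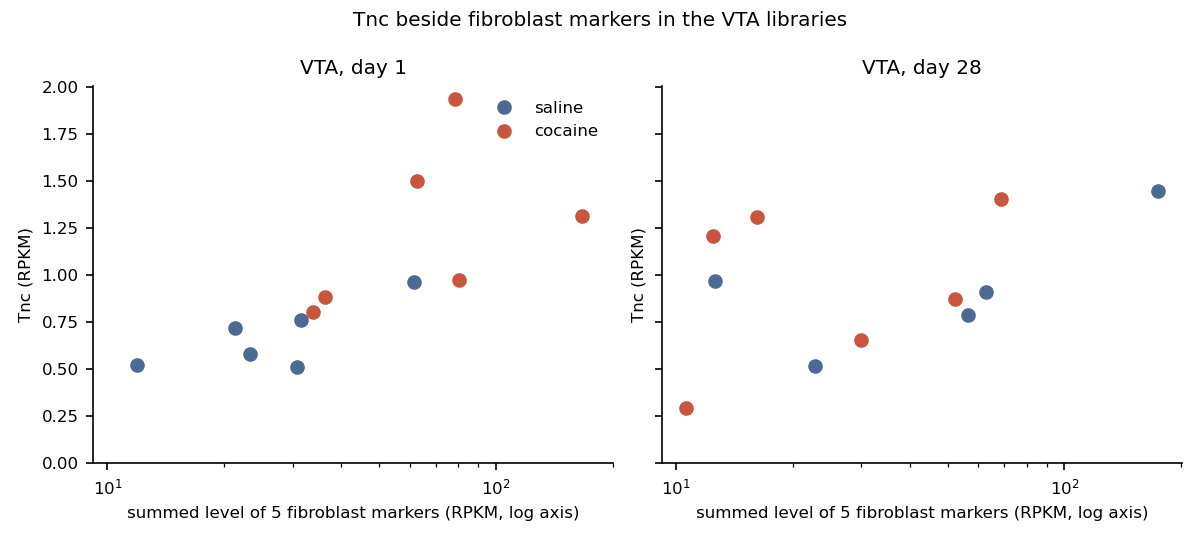
Tnc in RPKM (vertical axis, from 0) against the summed level of 5 fibroblast markers (horizontal log axis) in each VTA library at day 1 (left) and day 28 (right); blue is saline and red cocaine. At day 1 the cocaine libraries lie at 33.9 to 166 RPKM of fibroblast markers and above most saline libraries in Tnc, and at day 28 the treatments are mixed.

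In the VTA at day 28, Hapln1 and Ncan had fitted changes of opposite sign. Hapln1 held 0.880, 1.66, 2.14, 2.36 and 2.43 RPKM in the saline libraries and 0.974 to 1.51 RPKM in the cocaine libraries (median 1.27). All 6 cocaine libraries were below the saline mean, and the lowest value of all was a saline one, in library 1. The change was -0.59 on the log2 scale (SE 0.23, edgeR unadjusted p = 0.027, adjusted p = 0.41), and without that library -0.76 (adjusted p = 0.10). Ncan held 13.7 to 15.7 RPKM in the saline libraries and 15.2 to 18.3 RPKM with cocaine (median 15.9), 4 of 6 above every saline library and all 6 above the saline mean. Its change was 0.17 (SE 0.066, edgeR unadjusted p = 0.022, adjusted p = 0.40; exact permutation p = 0.011, adjusted 0.26). Tnr was higher than every saline library in 5 of 6 cocaine libraries, with a change of 0.40 and an interval of -0.19 to 0.98. Without saline library 1 the Tnr change was 0.18. Marker levels of other cells differed between these groups too. The microglia sum ran from 157 to 302 RPKM with saline and from 103 to 174 RPKM with cocaine. The cortical sum ran from 4.70 to 84.2 RPKM and from 4.38 to 19.2 RPKM. The astrocyte sums largely overlapped, at 393 to 971 RPKM with saline and 365 to 855 RPKM with cocaine. The median log2 change of the astrocyte markers was -0.02, against -0.03 over all genes. At an unadjusted p under 0.05, 3 of 5 cortical and 3 of 6 oligodendrocyte markers were lower with cocaine, against 6.39% of all genes. So were 2 of 6 microglia, 2 of 4 endothelial, 2 of 5 midbrain, 1 of 6 striatal and 1 of 4 choroid plexus markers. Higher were 1 of 5 midbrain, 2 of 6 striatal and 1 of 6 astrocyte markers, against 5.08% of all genes. No dopamine neuron, fibroblast or oligodendrocyte precursor marker passed. The part of these cells in the values of Hapln1, Ncan and Tnr was not tested.

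In the NAc, Vcan at day 1 ranged from 3.06 to 4.54 RPKM with saline (median 3.73) and from 3.77 to 5.44 RPKM with cocaine (median 4.32). All 6 cocaine libraries were above the saline mean and 2 above every saline library, and the change was 0.28 (SE 0.10, edgeR unadjusted p = 0.017, adjusted p = 1.00). At day 28 the Vcan change was 0.05 (interval -0.15 to 0.25). Tnr at day 28 ranged from 11.9 to 15.7 RPKM with saline (median 13.1) and from 13.1 to 19.0 RPKM with cocaine (median 16.0), a change of 0.23 (SE 0.10, edgeR unadjusted p = 0.039, adjusted p = 0.71). Acan at day 28 ranged from 0.319 to 0.520 RPKM with saline and from 0.395 to 0.713 RPKM with cocaine, all 6 above the saline mean, a change of 0.33 (SE 0.16, edgeR unadjusted p = 0.054, adjusted p = 0.75). At day 1 the Acan change was 0.08. A test of whether the cocaine effect changed between the days in the NAc called no member, and 0.0181% of all genes. Its smallest p among members was that of Tnc, whose fitted effect went from -0.16 at day 1 to 0.26 at day 28 (difference 0.44, SE 0.20, edgeR unadjusted p = 0.035, adjusted p = 0.93).

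In the PFC no member reached an unadjusted p under 0.05. At day 28 the changes of Ncan, Bcan, Tnr and Hapln1 were 0.05, 0.02, -0.02 and 0.10, each with an interval inside -0.26 to 0.28. The intervals were wider for Tnc (-0.61 to 0.49), Hapln4 (-0.22 to 0.40), Acan (-0.22 to 0.34) and Vcan (-0.32 to 0.17). Ncan there lay between 35.9 and 41.8 RPKM with saline and between 38.1 and 43.0 RPKM with cocaine. At day 1 the 6 members tested had changes between -0.16 (Bcan) and 0.10 (Hapln1). Tnc, under the minimum level, lay between 0.331 and 0.528 RPKM with saline and between 0.232 and 0.477 RPKM with cocaine, 3 of 6 cocaine libraries below every saline library (exact permutation p = 0.067, adjusted 0.61).

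Between the days, the saline means of Bcan and Ncan were higher at day 28 in all 3 regions and those of Vcan, Hapln1 and Tnr lower. Bcan was at 47.8, 63.8 and 33.5 RPKM in the NAc, VTA and PFC at day 1 and at 86.2, 107 and 65.5 RPKM at day 28, a ratio of 1.67 to 1.96. Vcan went from 3.75, 3.95 and 2.95 RPKM to 2.43, 2.81 and 1.86 RPKM, a ratio of 0.632 to 0.712. The ratios were 1.10 to 1.16 for Ncan, 0.687 to 0.870 for Hapln1 and 0.717 to 0.871 for Tnr. The tables of the days were made separately, so day, age at collection and table cannot be told apart and no test was made.

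The genes around the nets were read from 6 lists with 93 genes in all: other matrix proteins, hyaluronan enzymes and receptors, chondroitin sulfate enzymes, matrix proteases and their inhibitors, net receptors and ligands, and genes of parvalbumin interneurons. In the 6 cocaine comparisons 1 of them was called. Tmem2, the gene of a cell surface hyaluronidase, rose in the VTA at day 1 from 1.83 to 2.497 RPKM in the saline libraries to 2.81 to 3.77 RPKM in the cocaine libraries, without overlap (log2 change 0.55, SE 0.087, limma adjusted p = 0.039). The call did not hold with a covariate for the cortical markers (0.44, limma adjusted p = 0.30). Nor did it hold with one for the fibroblast markers, chosen after seeing the data (0.40, limma adjusted p = 0.23). No gene was called without cocaine library 3 or without saline library 1. In these libraries the fibroblast sum ran from 11.9 to 61.4 RPKM with saline and from 33.9 to 166 RPKM with cocaine, and the cortical sum from 2.00 to 31.5 RPKM and from 6.46 to 77.4 RPKM. In the same comparison Chst15, a chondroitin sulfotransferase gene, had a change of 1.11 (adjusted p = 0.093), Serpine2, a protease inhibitor gene, of -0.38 (0.105) and Kcnc2, a fast potassium channel gene, of -0.72 (0.20), all by limma and none past the threshold. There, 14 of 79 list genes tested were higher (17.7%, against 11.1% of all genes) and 6 lower (7.59%, against 4.29%) at an unadjusted p under 0.05, with a median change of 0.03, as over all genes (0.03).

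In the VTA at day 28, Pvalb, the gene of parvalbumin, ranged from 42.6 to 149 RPKM with saline and from 28.9 to 43.7 RPKM with cocaine (log2 change -1.07, SE 0.26, edgeR adjusted p = 0.39), in the groups whose microglia, cortical, oligodendrocyte and endothelial markers differed as given above. Csgalnact2, which starts chondroitin chains, had a change of -0.22 (edgeR adjusted p = 0.40), and Plxna1, a semaphorin receptor gene, and Timp2, a metalloprotease inhibitor gene, had changes of 0.41 and 0.33 (edgeR adjusted p = 0.39 for both). In the NAc at day 28 the smallest p-values were those of Csgalnact1 (0.29), Gad2 (0.24), Hapln2 (-0.24) and Tnxb (-0.36), with edgeR adjusted p-values of 0.59 to 0.78. At day 1 they were those of Timp3 (0.20), Egfr (0.22), Hyal2 (-0.37) and B3galt6 (-0.18), each with an edgeR adjusted p of 1.00. In the PFC they were those of Csgalnact2 (0.14), Timp4 (0.14), Adamts8 (-0.26) and B3galt6 (-0.14) at day 1 (limma adjusted p = 0.92 for all) and those of Sema3a (0.25), Kcnc2 (0.20), Tac1 (-0.91) and Hapln2 (-0.36) at day 28 (edgeR adjusted p = 0.84 for all). For the change of the effect between days in the NAc they were Csgalnact1 (0.36), Gad1 (0.25), Timp3 (-0.21) and Nid1 (-0.29), with edgeR adjusted p-values of 0.83 to 0.93. None of these passed. Tac1 is also made by striatal projection neurons, and PFC saline library 4 of day 28 held striatal markers at 735 RPKM. The other 5 of its group held 62.9 to 78.2 RPKM. In that comparison 6 of 6 striatal markers were lower with cocaine at an edgeR unadjusted p under 0.05, against 2.97% of all genes. The part of library 4 in the Tac1 change was not tested.

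Between regions, of 89 list genes tested, 41 were higher and 27 lower in the VTA than in the NAc (76.4% called, against 62.5% of all genes), 25 and 17 in the PFC than in the NAc (47.2% against 40.7%), and 38 and 23 in the VTA than in the PFC (68.5% against 57.8%). Matrix proteases and their inhibitors were called higher in the VTA than in the PFC in 15 of 19 cases (78.9%, against 29.8% of all genes) and lower in 4 (21.1%, against 28.1%), with a median log2 difference of 1.14 against 0.02 over all genes. Adamts9, an aggrecanase-family gene, was 1.41 RPKM in the VTA and 0.298 RPKM in the PFC (2.10), while Mmp17 was 12.5 and 77.1 RPKM (-2.78). Of 20 chondroitin sulfate genes, 4 were higher and 9 lower in the VTA than in the PFC (65% called, against 57.8% of all genes), among them Chst3 (1.08) and Chsy3 (-2.10), and Chst15 was lower in the VTA (4.82 RPKM) than in the NAc (27.5 RPKM; -2.63), where Dse was higher (1.05). Between PFC and NAc, Xylt1 was higher (1.14) and Ust lower (-1.30) in the PFC, as were Adamts8 (1.67) and Serpine2 (-0.81).

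Of all genes, 32.6% were called higher and 29.8% lower in the VTA than in the NAc. The shares were 29.8% and 28.1% in the VTA against the PFC, and 20.7% and 20% in the PFC against the NAc. Of 12 hyaluronan genes, 6 were higher and 2 lower in the VTA than in the NAc, 6 and 0 than in the PFC. In the PFC 0 were higher and 2 lower than in the NAc. Cd44, a hyaluronan receptor gene, was higher in the VTA (1.61 RPKM) than in the NAc (0.332 RPKM, log2 difference 2.16) and the PFC (1.91). Has1, a hyaluronan synthase gene, was lower than in the NAc in both the VTA (-1.24) and the PFC (-1.87). Of 12 other matrix genes, 8 were higher and 3 lower in the VTA than in the NAc, 6 and 1 than in the PFC. In the PFC 2 were higher and 0 lower than in the NAc. Smoc1 led the other matrix genes in the VTA (2.31 over the NAc, 2.396 over the PFC), with Reln lower than in the NAc (-1.03) and Cspg5 lower than in the PFC (-1.01). Sparcl1 was higher in the PFC than in the NAc (0.78). Of 16 genes of net receptors and ligands, 5 were higher and 7 lower in the VTA than in the NAc, 3 and 8 than in the PFC. In the PFC 8 were higher and 2 lower than in the NAc. Within this list, Otx2 is the gene of a homeoprotein taken up by net-bearing cells. It was 2.86 RPKM in the VTA, 0.249 RPKM in the NAc and 0.0722 RPKM in the PFC (3.40 and 5.14). Midbrain markers (5 of 5) and dopamine neuron markers (6 of 6) were also called higher in the VTA than in the NAc and the PFC. Of all genes, 32.6% and 29.8% were. The part of midbrain cells in the Otx2 level was not tested. Rtn4rl2 was lower in the VTA (-2.68 and -5.73), Rtn4r higher in the PFC than in the NAc (3.18) and Itga9 lower (-0.999). Of 10 interneuron genes, 6 were higher and 4 lower in the VTA than in the NAc, 4 and 1 than in the PFC. In the PFC 4 were higher and 4 lower than in the NAc. Pvalb was 77.3 RPKM in the VTA against 10.2 RPKM in the NAc (2.82). Syt2 was higher in the VTA than in the PFC (2.54) and Cox6a2 lower (-2.06), and Kcnc2 was higher in the PFC than in the NAc (1.86). Tac1, which striatal projection neurons also make, was lower than in the NAc in the VTA (-3.50) and the PFC (-2.91). Values in parentheses here without a unit or a count are log2 differences called at an edgeR adjusted p under 0.05.

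Finally, the genes whose level followed each member most closely were taken from the 35 day 28 libraries, after each group's mean was removed, and read again in the 36 libraries of day 1. These correlations (Pearson's r of log2 CPM, counts scaled by library size, over 17679 genes) are descriptions, since libraries share tissue makeup and depth. Acan was followed by Lgi3 (0.79, day 1 0.44), Vamp1 (0.72, day 1 0.66) and Pvalb (0.70, day 1 0.69). Hapln4 was followed by Kcnab3 (0.89, day 1 0.85), Tmem25 (0.88, day 1 0.85) and Flt3 (0.86, day 1 0.90). Bcan was followed by Prodh, Abi3 and C1qb (0.80, 0.79 and 0.77, day 1 0.52, 0.70 and 0.75). Ncan was followed by Rorb, Rims4 and Hspb3 (0.75, 0.73 and 0.72, day 1 0.49, 0.61 and 0.26). Hapln1 was followed by Tgfbr1, Itgav and Zfp91 (0.83, 0.82 and 0.82, day 1 0.60, 0.75 and 0.73). Tnc was followed by Cd44, Asb2 and Slc36a2 (0.82, 0.73 and 0.71, day 1 0.39, 0.40 and 0.41). Tnr was followed by Klf12, Mll5 and Ncor1 (0.97, 0.96 and 0.95), but Mll5 and Ncor1 only at 0.23 and 0.27 at day 1, and all 3 were low in VTA saline library 1, with Klf12 at 2.54 RPKM against 7.20 to 7.92 RPKM in the other 4. Vcan was followed by 4930402H24Rik, Cdk5rap2 and Usp54 (0.87, 0.86 and 0.86, day 1 0.61, 0.46 and 0.19). Among the members themselves, Acan and Hapln4 were correlated at both days (0.54 and 0.61). The pairs among Vcan, Hapln1 and Tnr had correlations of 0.58 to 0.63 at day 28 and of -0.24 to -0.08 at day 1.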

How the data were processed

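RNA-seq of 71 mouse libraries was read from 6 tables, one per region and day. The authors aligned reads to mm9 with STAR 2.4.1d; strand handling and the counter are not given in the sources used here. Per the file headers and values, 4 tables (NAc day 1 and all of day 28) hold deposited read counts per gene, and 2 (VTA and PFC at day 1) hold values deposited by the authors in a unit taken as RPKM, which their methods name and the steps of the values fit. Columns of the authors' own comparisons (log fold changes, p-values and percentages) were not used, nor were 30 columns of no listed sample. At day 28 the columns name the group with numbers that do not match those of the labels, so they were tied to groups only, and library numbers here are those of the columns.

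Counts were tested with edgeR 4.0.16 (quasi-likelihood, TMM, filterByExpr with a minimum count of 10) and RPKM with limma 3.58.1 on log2(RPKM + 0.1) for genes with a mean of 0.5 or more. The RPKM steps gave whole reads for all 23806 (VTA) and 23353 (PFC) genes with reads, within a tolerance of 0.001, and edgeR on these was an alternative that called 55 and 1 genes. Levels are RPKM throughout, computed for the count tables from the gene lengths that the RPKM tables imply and the library totals. Single members were also tested by two-sided exact permutation over all divisions of the libraries, adjusted over 48 tests. DESeq2 1.42.0, other scalings, filters and pseudocounts, a replicate block, marker covariates and leaving out each library were alternatives. Fits were tested on simulated data. Named list genes are the 2 with the smallest p in each direction per cocaine comparison plus any called, and per list the largest called difference in each direction per region pair with a mean of 1 RPKM or more in 1 of the regions. The members and lists were chosen with earlier results of these data known.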

Additional observations from a re-analysis of the deposited data

Results flagged for a closer look

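In 6 of 96 combinations of member, region, day and treatment, 1 library lay far from the rest of its group by Dixon's 95% criterion, which chance gives in about 1 of 20 groups. Tnr in the VTA at day 28 had 2 of them, both in the library numbered 1: 4.19 RPKM with saline, where the next library was at 13.9 RPKM, and 10.1 RPKM with cocaine, where the next was at 16.2 RPKM. The saline one is the library that correlated least with its group, and Vcan (1.63 RPKM) and Hapln1 (0.880 RPKM) were also the lowest of the group in it. The numbers come from the columns and do not tie the libraries of the treatments to each other.

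The others were single values. Bcan in the NAc at day 1 reached 60.3 RPKM in cocaine library 5, with the next at 45.2 RPKM. Hapln4 in the PFC at day 1 reached 44.3 RPKM in cocaine library 3, with the next at 32.3 RPKM. Ncan in the VTA at day 1 was 10.8 RPKM in saline library 6, with the next at 13.0 RPKM. Tnr in the NAc at day 1 was 21.1 RPKM in saline library 1, with the next at 18.9 RPKM.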

How the results depend on the processing

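The count of genes called with cocaine was small and moved with the method. DESeq2 called 21 genes in the NAc at day 1, 14, 74 and 2 in the NAc, VTA and PFC at day 28, and 10 for the change between days in the NAc, against 2, 0, 0, 0 and 3 by edgeR. In the VTA at day 1 the 28 genes became 55 with edgeR on recovered reads, 13 with a replicate block, 2 without the filter on low levels, 0 with either the cortical or the fibroblast covariate, and 1269 (1 member, Tnc) at an adjusted p under 0.25. That looser threshold gave 4 genes in the PFC at day 1, and the cortical covariate gave 5 in the NAc at day 1. No member was called under any other of these settings. Leaving out 1 library at a time gave 0 to 2 genes in the NAc and PFC at day 1 and in the NAc at day 28, 0 to 54 in the VTA at day 1 (0 without cocaine library 3 or saline library 1, 54 without cocaine library 6), and 2 to 5 members between PFC and NAc. With all libraries that last count was 2, beside 40.7% of all genes. It was 4 in the day 28 cocaine libraries (9050 of 16948 genes called). It was also 4 in the day 1 saline libraries without and with a replicate block (6715 and 6189 of 16430 genes). Without the 2 libraries that stood apart it was 4 as well (8188 of 17308 genes). The cause of these shifts was not tested.

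Several members changed sign. With the cortical and the fibroblast covariate, chosen in the latter case after seeing the data, the changes in the VTA at day 1 were 0.13 and 0.099 for Ncan, 0.0087 and 0.016 for Hapln1 and 0.27 and 0.30 for Acan (-0.24 without a covariate), and Hapln4 was -0.078 on recovered reads. Between regions, Vcan between VTA and NAc was -0.067 in the day 28 cocaine libraries. Between PFC and NAc, Tnc was -0.055 there, and in the day 1 saline libraries Hapln1 was -0.069 and -0.015 and Acan -0.12 and -0.042, without and with a replicate block. Hapln4 between VTA and PFC was 0.10 with library totals alone, and 0.20 and 0.14 at day 1 without and with the block. With 1 library left out at a time, the fitted log2 values that crossed 0 ranged as follows: in the NAc at day 1, Acan -0.029 to 0.16, Hapln1 -0.18 to 0.077, Tnr -0.061 to 0.037; in the NAc at day 28, Hapln4 -0.056 to 0.24, Ncan -0.013 to 0.040, Vcan -0.014 to 0.10; in the PFC at day 1, Hapln4 -0.086 to 0.076, Tnr -0.065 to 0.014; in the PFC at day 28, Acan -0.026 to 0.12, Bcan -0.016 to 0.076, Tnc -0.20 to 0.073, Tnr -0.068 to 0.052; in the VTA at day 1, Bcan -0.14 to 0.0044, Hapln1 -0.16 to 0.022, Hapln4 -0.095 to 0.18, Ncan -0.060 to 0.021, Tnr -0.018 to 0.13; in the VTA at day 28, Acan -0.038 to 0.28, Bcan -0.16 to 0.0015, Tnc -0.10 to 0.25, Vcan -0.29 to 0.0055. Between regions they were Vcan between VTA and NAc -0.036 to 0.26 and Hapln4 between VTA and PFC -0.20 to 0.054.

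Same-numbered libraries of day 1 had correlated deviations between treatments of -0.36 to 0.48 in the NAc, -0.19 to 0.41 in the VTA and -0.20 to 0.0076 in the PFC. These were above 0.1 in 3, 3 and 0 of 6 pairs, and 2, 2 and 0 of 6 libraries correlated best with their own number, so the numbers were not taken to pair the samples; whether some of them do was not settled. The replicate block gave 2, 13 and 1 genes in the NAc, VTA and PFC at day 1. The day 28 columns carry no label numbers, so no block was fitted there. Acan and Tnc rest on 39 to 417 reads per library, which limits what these libraries can show for them.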
